A study of Mus musculus with 2 samples.

Results

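Incomplete splice matches are long reads whose exon chain is an unbroken piece of a longer known chain. They are described here for annotated genes, as transcript models that carry this class name and belong to a gene of the annotation. Replicate 1 held 32706 such models of 143443 in all, and replicate 2 held 29373 of 126438. The deposited subtype names the side that is missing. A Prefix model keeps the start of the chain and lacks later junctions, a Suffix model keeps the end and lacks earlier junctions, a Both model is a prefix of some chains and a suffix of others, and a None model is neither. The series sequenced total RNA of hippocampus, labelled as a layer of hippocampus, from female B6CASTF1/J mice (an F1 hybrid strain) aged 14 days. It has 1 group with 2 libraries, each a pool of 3 animals that started from 2 µg of RNA with ERCC and SIRV spike-ins, and no second condition. These forms can therefore be described, and replicate 1 set against replicate 2, but no treatment can be tested. Depth was 1168366 reads in replicate 1 and 888704 in replicate 2. All 5 pan-neuronal, 3 dentate granule cell, 3 CA1 and 3 CA2/CA3 marker genes had reads in this tissue. So did 3 of 3 neocortex layer, 3 of 3 striatum and 2 of 3 thalamus markers, so having reads does not set the region apart. The summed level of 4 choroid plexus markers was 4634 CPM (reads scaled to the library total) in replicate 1 and 6.75 CPM in replicate 2, so the pools differed in these transcripts. Their part in the results was not tested. Nothing in the labels says whether the pools differ otherwise.

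A messenger RNA is read from its poly(A) tail when the first cDNA strand is primed with oligo-dT, so a copy that stops early lacks its 5′ side and is named a suffix. A transcript that starts at an internal promoter gives the same exon chain. A prefix form arises where cleavage and polyadenylation occur before the last exon, where the primer lands on an A-rich stretch inside the RNA, or where the last intron is kept in the RNA. The class name does not separate these sources. Cleavage sites usually lie shortly after the hexamer AATAAA or its variant ATTAAA.

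The sequences shown first are the last 30 bases of the leading prefix chain of 8 genes led by prefix forms, since they stand just before the end of the form. The genes were chosen after values were seen. The sequences are from GENCODE M21 transcripts (GRCm38, the mm10 build), written 5′ to 3′ on the strand of the gene, and capitals mark AATAAA or ATTAAA. The windows are chr7:27664180-27664209 on the minus strand for Map3k10, chr10:80392539-80392568 on the minus strand for Mbd3, chr4:21875227-21875256 on the plus strand for Pnisr, chrX:20852860-20852889 on the plus strand for Araf, chr2:103767107-103767136 on the minus strand for Caprin1, chr16:91694338-91694367 on the minus strand for Cryzl1, chr1:172319806-172319835 on the plus strand for Igsf8 and chr17:44083343-44083372 on the plus strand for Enpp5. The end is the same base in both libraries for all of these but Enpp5, whose window is from replicate 1.
Map3k10: atgttataagtatgatagcataaATTAAAa
Mbd3: ttcAATAAActgatggtaggaacttgtgaa
Pnisr: AATAAAactatttagttcatttttgttaaa
Araf: cattatgatatgtAATAAAaagtcatatct
Caprin1: cactcAATAAAtacttgttgaatgaatgaa
Cryzl1: aAATAAAATAAAttgtcagatttttataaa
Igsf8: ttctaaaatgtgAATAAActggttttgtaa
Enpp5: caaataatcagtaaaacagcatctgatcac
Of the 12 named prefix-led genes, 11 had a sequence. In 7 of these 11 one of the hexamers lay in the last 30 bases, and in the other 4 (Enpp5, Cdk17, Ccnl2 and 2610005L07Rik) neither lay in the last 50. The ends of Map3k10, Araf, Pnisr, Caprin1 and Igsf8 are also the last base of another annotated transcript of the gene, while those of Mbd3 and Cryzl1 are the last base of the transcript that the form is a piece of.

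For comparison, the last 30 bases of the leading suffix chain of 3 suffix-led genes lie at chr4:126743750-126743779 (minus strand) for Ncdn, chr8:55060842-55060871 (plus strand) for Gpm6a and chrX:7653227-7653256 (plus strand) for Syp, with the same capitals.
Ncdn: AATAAAtgtttattggtgatgagaagcctc
Gpm6a: AATAAAtacacttgtgtactttgtgtactt
Syp: ccccccAATAAActcctcaactatctagtc
Of the 12 named suffix-led genes, 10 had a sequence, and 8 of these 10 held a hexamer in the last 30 bases. The last sequences show what follows the end of a prefix form rather than what precedes it. They are the 30 bases after the last base of prefix chains that ended on the same base in both libraries, inside a coding exon, with at least 2 reads in each. The end also had to lie off every annotated end and before the edge of the parent's exon. The parent had to be the same in both libraries, and the 30 bases had to stay in the coding part of that exon. Chains on 1 chromosome were left out. Only Son (chr16:91654700-91654729, plus strand) and Rtf1 (chr2:119710997-119711026, plus strand) met this rule, which was set after values were seen, and capitals mark A.
Son: AAAAAgcAcAAAAAcAAAAAgAAgAAAAAg
Rtf1: AAAAgAAAgAgAAgAAAgAAAAAAAgAAAA
The Son chain, which had 3 exons and lacked the last 2 junctions of its annotated parent, had 92 reads in replicate 1 and 30 in replicate 2, and the 20 bases after its end held 16 A. Son encodes a large splicing cofactor of nuclear speckles. The Rtf1 chain had 3 reads in replicate 1 and 6 in replicate 2, with 15 A in 20. Rtf1 belongs to the PAF1 complex of transcription elongation.

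Incomplete splice matches took 9.41% of all reads in replicate 1 and 9.55% in replicate 2, a mean of 9.48% ± 0.0999 (SD, n = 2). Annotated transcripts, spike-ins left out, took 63.9% ± 1.36 of reads (SD, n = 2). Among the incomplete splice matches, suffix forms were the bulk. Prefix forms took 7.77% of their reads in replicate 1 and 7.51% in replicate 2, and suffix forms took 64.5% in replicate 1 and 70.5% in replicate 2. Both forms took 1.13% in replicate 1 and 1.42% in replicate 2. None forms took 26.6% in replicate 1 and 20.6% in replicate 2. The exact (Clopper-Pearson) 95% intervals of the prefix share were 7.61 to 7.93% in replicate 1 and 7.34 to 7.69% in replicate 2, so they overlap, and those of the suffix share were 64.2 to 64.8% in replicate 1 and 70.2 to 70.8% in replicate 2, so they do not. Intervals cover counting error only. The order of the subtypes was the same in both libraries, and the means were 7.64% ± 0.180 for prefix and 67.5% ± 4.24 for suffix (SD, n = 2). With 1-exon models left out, the mean suffix share was 87.9% ± 0.640 (SD, n = 2), a smaller spread between libraries.

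**Figure D1:**
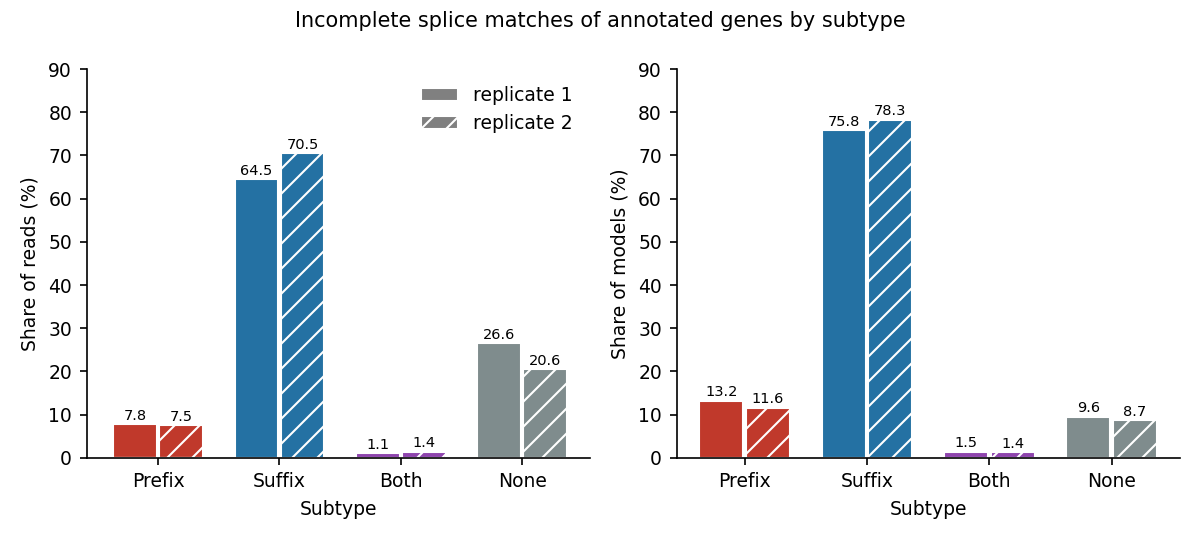
Share of incomplete splice match reads (left, %) and of incomplete splice match models (right, %) in each deposited subtype, 1 bar for each library (plain for replicate 1, hatched for replicate 2). Suffix is the highest bar in both panels, and None is the second highest among reads and the third highest among models.

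Counted as models rather than reads, prefix forms made up 13.2% in replicate 1 and 11.6% in replicate 2, suffix forms 75.8% in replicate 1 and 78.3% in replicate 2, and None forms 9.55% in replicate 1 and 8.70% in replicate 2. Most models were thin. A count of 1 read was behind 75.3% of prefix models in replicate 1 and 76.8% in replicate 2, and behind 64.4% of suffix models in replicate 1 and 65.7% in replicate 2. None models had 1 read in 40.1% of cases in replicate 1 and 42.1% in replicate 2.

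Prefix and suffix reads had similar mean exon numbers, while over models suffix was higher. The mean was 7.54 exons per prefix read and 7.45 per suffix read in replicate 1, and 8.12 per prefix read and 8.31 per suffix read in replicate 2. Both forms held 5.95 exons per read in replicate 1 and 5.91 in replicate 2. None reads held 1.07 exons in replicate 1 and 1.09 in replicate 2. Over reads, prefix averaged 7.83 ± 0.410 exons and suffix 7.88 ± 0.614 (SD, n = 2). Over models, each counted once, the mean was 7.28 for prefix and 8.37 for suffix in replicate 1, and 7.87 for prefix and 8.85 for suffix in replicate 2. Reads with 2 exons made up 12.0% of prefix and 16.8% of suffix reads in replicate 1, and 10.7% of prefix and 12.9% of suffix reads in replicate 2. Reads with 10 or more exons made up 27.7% of prefix and 26.8% of suffix reads in replicate 1, and 31.6% of prefix and 32.9% of suffix reads in replicate 2. The longest chain had 41 exons for prefix and 66 for suffix in replicate 1, and 53 for prefix and 72 for suffix in replicate 2. Median model length per read was 2080 nt for prefix, 1911 nt for suffix and 1255 nt for None in replicate 1, and 2409, 2236 and 1516 nt in replicate 2. All 3 medians were higher in replicate 2.

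**Figure D2:**
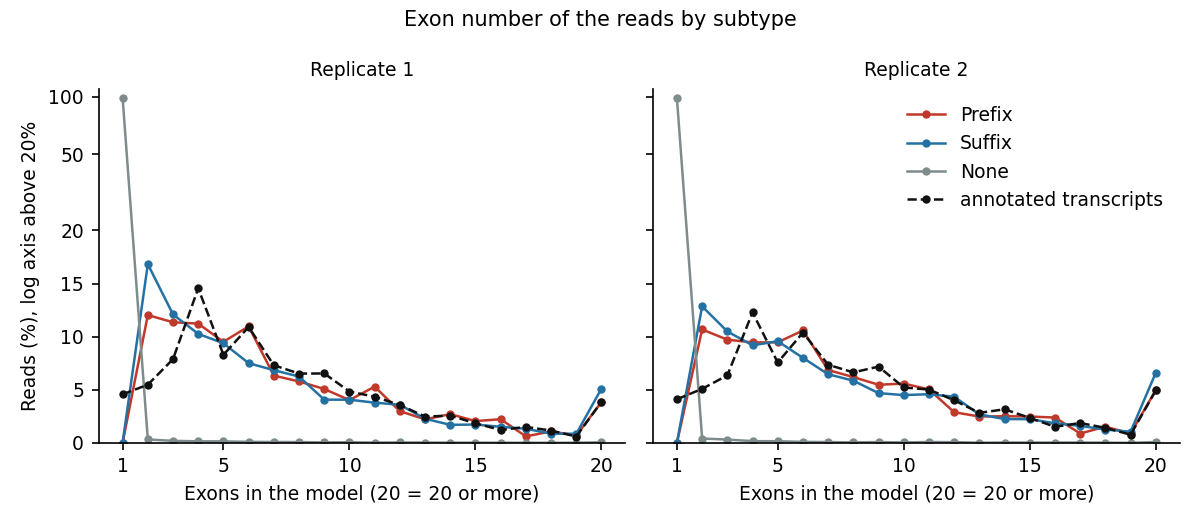
Share of reads (%, y axis, linear up to 20% and logarithmic above) by number of exons in the model (x axis, 20 stands for 20 or more), for prefix, suffix and None reads and for annotated transcripts, in each library. Nearly all None reads lie at 1 exon, and prefix and suffix reads are spread from 2 exons upwards with suffix higher at 2.

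The missing side was set against the parent, the annotated transcript of the same gene that leaves the fewest junctions out. Such a parent was found for 79.2% of prefix reads and 93.1% of suffix reads in replicate 1, and for 77.8% of prefix reads and 93.4% of suffix reads in replicate 2. The remaining spliced chains with no annotated whole numbered 3187 models in replicate 1 and 2947 in replicate 2. All of them were pieces of other models of the same library that are not in the annotation. Prefix reads lacked a median of 2 junctions and suffix reads a median of 3 in both libraries. A single junction was missing in 42.4% of prefix reads and 33.1% of suffix reads in replicate 1, and in 44.1% of prefix reads and 31.4% of suffix reads in replicate 2.

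A prefix form did not always end early. The 3′ end of 33.0% of prefix reads with a parent in replicate 1 and 33.5% in replicate 2 lay in the last exon of the parent or past it, with the junctions in between absent. For 15.8% in replicate 1 and 13.7% in replicate 2 the end was the very last base of the parent. For these the name prefix describes the splice junctions and not the end. Another 36.4% in replicate 1 and 40.8% in replicate 2 ended in the intron after the last shared exon. Ends inside the last shared exon made up 10.4% in replicate 1 and 8.16% in replicate 2, and ends on its very edge 15.5% in replicate 1 and 12.6% in replicate 2.

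Suffix forms had another pattern. Weighted by reads, the 5′ start of their models lay exactly on the edge of the first shared exon in 54.7% in replicate 1 and 56.3% in replicate 2. It lay inside that exon in 24.8% in replicate 1 and 23.5% in replicate 2. It lay in the intron before that exon in 10.2% of reads in replicate 1 and 10.6% in replicate 2. Only 6.31% in replicate 1 and 5.95% in replicate 2 reached the first exon of the parent or lay before it.

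**Figure D3:**
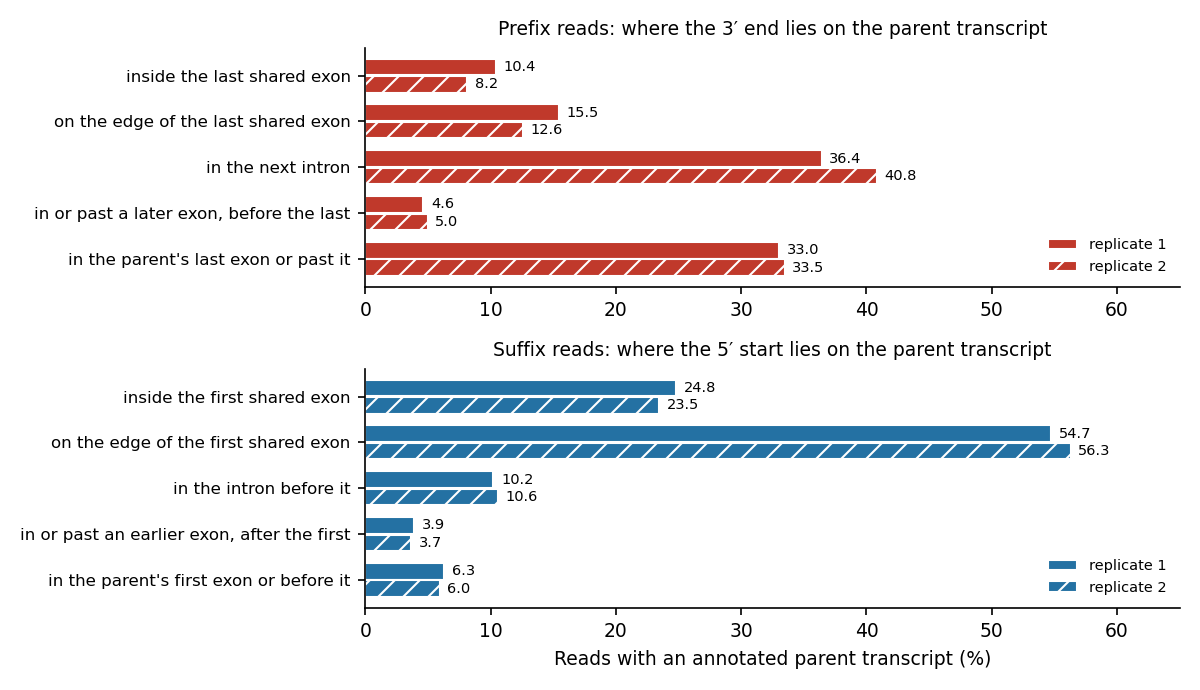
Where the open side lies on the parent transcript, as a share of prefix reads (top, 3′ end) and suffix reads (bottom, 5′ start) that have an annotated parent (%, x axis), 1 bar for each library. Prefix reads stand at 33.0 and 33.5% at the last exon of the parent or past it, and suffix reads at 54.7 and 56.3% on the edge of the first shared exon.

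Many model ends lay exactly on annotated sites. The 3′ end of 54.8% of prefix reads in replicate 1 and 57.2% in replicate 2 was, to the base, an annotated transcript end of the gene, and only 0.222% in replicate 1 and 0.0314% in replicate 2 lay 1 to 50 nt from one. The 5′ start of 30.2% of suffix reads in replicate 1 and 29.0% in replicate 2 was an annotated start, with 0.271% in replicate 1 and 0.289% in replicate 2 lying 1 to 50 nt from one. How the ends of a model were chosen is not stated in the labels or headers. A model has 1 start and 1 end for all its reads. These positions, and those on the exons of the parent, therefore do not give the spread of its reads. Whether ends were moved to annotated sites is not known, so an end shared by both libraries may not be 2 separate observations. On the complete side, 95.6% of prefix reads in replicate 1 and 96.2% in replicate 2 began on an annotated start, and 88.5% of suffix reads in replicate 1 and 89.3% in replicate 2 ended on an annotated end.

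Prefix and suffix forms kept opposite codons, as the subtype names largely set. Codons were counted only within exons shared with the coding transcript, so a stop codon beyond those exons could not be scored. Among prefix reads that are a piece of a coding transcript, 94.4% in replicate 1 and 93.8% in replicate 2 held its start codon, and 9.57% in replicate 1 and 10.5% in replicate 2 held its stop codon, counted within shared exons. Among suffix reads, 13.5% in each library held the start codon, and 98.9% in replicate 1 and 99.0% in replicate 2 held the stop codon. A full coding stretch from start to stop was held by 9.40% of such prefix reads and 13.5% of such suffix reads in replicate 1, and by 9.89% of prefix reads and 13.5% of suffix reads in replicate 2.

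The letters around the ends were read where an annotated exon covered them. One of AATAAA or ATTAAA, searched on the transcript strand alone, stood in the 50 bases before the end of 66.8% of scored prefix reads in replicate 1 and 72.3% in replicate 2 where the end was an annotated end. Where the prefix end lay elsewhere in an annotated exon, off the edge of the parent's exon, the share was 24.1% in replicate 1 and 31.4% in replicate 2. On the exact edge of an exon it was 6.63% in replicate 1 and 7.01% in replicate 2. Suffix reads had a hexamer in 83.1% in replicate 1 and 84.5% in replicate 2 where they ended on an annotated end, and in 55.9% in replicate 1 and 60.5% in replicate 2 elsewhere in an exon. Over all windows of 50 bases in the most-read annotated transcript of 10304 genes the share was 3.40%. At least 12 A in the 20 bases after the end, read where an annotated exon went on past it, were found for 28.9% of scored prefix reads on an annotated end in replicate 1 and 27.8% in replicate 2. Where the prefix end lay elsewhere in an exon the share was 16.9% in replicate 1 and 14.9% in replicate 2, and without the Son chain 8.14% in replicate 1 and 11.2% in replicate 2. On the exact edge of an exon it was 0% of 74 scored reads in replicate 1 and 0% of 52 in replicate 2. Suffix reads had 11.5% in replicate 1 and 14.0% in replicate 2 on annotated ends, and 11.2% in replicate 1 and 11.5% in replicate 2 elsewhere. With each model counted once, the share elsewhere in an exon was 9.87% for prefix and 13.1% for suffix in replicate 1, and 10.2% for prefix and 14.1% for suffix in replicate 2, so the order turned. Over all windows of 20 bases it was 0.95%. These matches describe the letters and do not show how an end arose.

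None forms were almost entirely unspliced. Models with 1 exon made up 98.7% of None reads in replicate 1 and 98.3% in replicate 2. Of the 1-exon reads, 95.7% in replicate 1 and 97.0% in replicate 2 lay wholly inside the last exon of an annotated transcript of their gene. Uqcrq, Slc25a4 and Rab6b were among the 4 genes with the most. Uqcrq, a subunit of respiratory complex III, had 627 None reads in replicate 1 and 333 in replicate 2, and no prefix, suffix or Both read. Slc25a4, the mitochondrial ADP/ATP carrier, had 544 in replicate 1 and 318 in replicate 2. Rab6b, a Golgi trafficking GTPase, had 189 of 208 reads in replicate 1 and 162 of 176 in replicate 2.

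Spliced forms found in both libraries held more of the reads than of the models. The same exon chain in the same gene was found in both libraries for 12085 spliced models, which were 40.4% of spliced models and 70.8% of their reads in replicate 1, and 44.6% of models and 72.2% of reads in replicate 2. Of prefix models 27.5% in replicate 1 and 34.6% in replicate 2 were shared, and of suffix models 43.2% in replicate 1 and 46.5% in replicate 2. Shared chains held 52.5% of prefix reads and 73.3% of suffix reads in replicate 1, and 57.0% of prefix reads and 74.2% of suffix reads in replicate 2. Of the shared chains, 98.9% had the same subtype in both. The 3′ end was the same base in 63.9% of shared prefix chains and the 5′ start in 77.1% of shared suffix chains.

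Genes were called led by prefix or by suffix where they had at least 10 prefix plus suffix reads in each library and more of that form in both. There were 1222 genes with enough reads. Suffix forms led in 1140 (93.3% of those counted) and prefix forms in 53 (4.34%). The other 29 had no common leader, and 18 of these had opposite leaders in the libraries. In 490 genes no prefix read was found in either library, against 6 genes with no suffix read. The prefix share of the 53 prefix-led genes ran from 52.6 to 100% in replicate 1 and from 53.3 to 100% in replicate 2, with medians of 83.3% in replicate 1 and 86.4% in replicate 2. In 36 of the 53 prefix-led genes and 1053 of the 1140 suffix-led genes the exact interval of the share excluded 50% in each library.

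**Figure D4:**
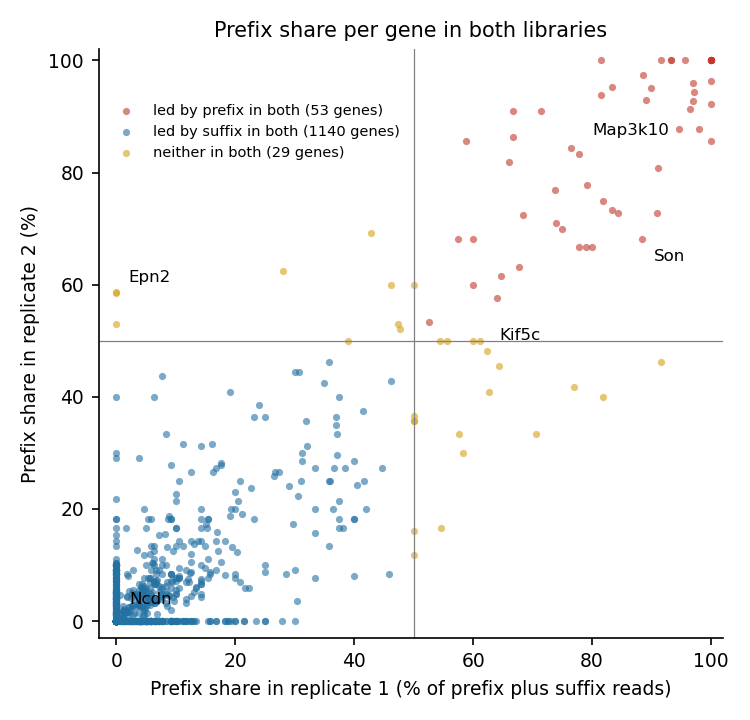
Prefix share (% of prefix plus suffix reads) in replicate 1 (x axis) and replicate 2 (y axis) for 1222 genes, 1 point a gene, coloured by leader. Points of suffix-led genes crowd at 0, the 53 prefix-led genes stand in the upper right, and Epn2 stands at 0 in replicate 1 and 58.5% in replicate 2.

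Prefix-led genes mostly had 1 dominant form. The leading chain held a median of 85.1% of the gene's prefix reads in replicate 1 and 90% in replicate 2, and the median number of prefix chains was 2. Suffix-led genes were spread over more chains, with a median of 7 in each library and a leading chain of 40% in replicate 1 and 41.7% in replicate 2. Of the leading prefix chains, 37 of 53 ended on an annotated transcript end. Of the 48 with an annotated parent, 21 ended in the next intron, 16 reached the last exon of the parent or ran past it, 6 ended inside the last shared exon and 5 on its edge. All 39 that are pieces of a coding transcript held the start codon and 6 held the stop codon. Of 1074 such leading suffix chains, 177 held the start codon and 1067 the stop codon. This contrast too is largely set by the subtype names.

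The 12 prefix-led genes named here are those with the most prefix reads in the library where they had fewer, and 3 of them encode kinases. Map3k10, a mixed lineage kinase of the JNK pathway (chromosome 7, 27656375 to 27674598), had 65 prefix and 2 suffix reads in replicate 1, and 51 prefix and 4 suffix reads in replicate 2. Its leading form, with 57 reads in replicate 1 and 46 in replicate 2, kept 4 exons, lacked the last 6 junctions of its parent and ended in an intron 218 nt past the last shared exon, on the end of an annotated retained-intron transcript. It held the start codon and not the stop codon. Incomplete splice matches were 75.8% of the gene's reads in replicate 1 and 73.4% in replicate 2. Araf, a RAF kinase (chromosome X, 20797814 to 20860519), had 39 prefix and 5 suffix reads in replicate 1, and 37 prefix and 1 suffix read in replicate 2. Its leading form kept 6 exons and lacked 11 junctions of its parent, which is annotated as a nonsense-mediated decay transcript. It held the start codon of that parent and not the stop codon. The form ended on the last base of another annotated transcript of the gene, which is of the protein-coding type. Cdk17, a cyclin-dependent kinase (chromosome 10, 93160875 to 93267071), had 62 prefix and 6 suffix reads in replicate 1, and 42 prefix and 10 suffix reads in replicate 2. Its leading form kept 16 exons, lacked the last junction alone, and held the start codon and not the stop codon within shared exons. In replicate 1 it ended on the last base of its parent, 2285 nt past the last shared exon, and in replicate 2 it ended 1085 nt past that exon.

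Another 4 encode regulators of chromatin or RNA. Mbd3, a subunit of the NuRD chromatin complex (chromosome 10, 80392539 to 80399550), had 66 prefix and 2 suffix reads in replicate 1, and 47 prefix and 2 suffix reads in replicate 2. Its leading form ran through the last intron to the annotated end of its parent, 556 nt past the last shared exon. Pnisr, a serine/arginine-rich nuclear protein, had 44 prefix and 10 suffix reads in replicate 1, and 45 prefix and 3 suffix reads in replicate 2, and 1 chain held 43 of these prefix reads in replicate 1 and 44 in replicate 2. Ccnl2, a cyclin of nuclear speckles, had 71 prefix and 4 suffix reads in replicate 1, and 36 prefix and 5 suffix reads in replicate 2. One chain of 6 exons carried 70 of these in replicate 1 and 35 in replicate 2, with its end at 155818664 in replicate 1 and 155820329 in replicate 2 on chromosome 4. Caprin1, a protein of RNA granules, had 38 prefix and 10 suffix reads in replicate 1, and 35 prefix and 10 suffix reads in replicate 2. It also had 15 Both reads in replicate 1 and 19 in replicate 2. Its leading form kept 18 exons and lacked the last junction, and held the start codon and not the stop codon.

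Among the others, Enpp5, an ectonucleotide phosphodiesterase family member, had 49 prefix and 1 suffix read in replicate 1, and 43 prefix and 6 suffix reads in replicate 2. Cryzl1, a quinone oxidoreductase-like gene, had 34 prefix and 1 suffix read in replicate 1, and 33 prefix and 2 suffix reads in replicate 2. Igsf8, an immunoglobulin superfamily membrane protein, was close to even in replicate 1, with 35 prefix and 26 suffix reads. In replicate 2 it had 32 prefix and 15 suffix reads. All of its prefix reads came from 1 chain, which lacked the last junction and held both codons. The transcribed locus 2610005L07Rik had 56 prefix reads in replicate 1 and 35 in replicate 2 with no suffix read. The gene with the most prefix reads, AC149090.1, lies on the unplaced scaffold JH584304.1, and had 334 prefix and 41 suffix reads in replicate 1, and 320 prefix and 24 suffix reads in replicate 2 over 32 prefix chains in replicate 1 and 30 in replicate 2. Genes on such scaffolds, and pseudogenes such as 2610005L07Rik, can share reads with near-identical copies, so their counts are uncertain.

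Suffix-led genes were chosen in the same way by their suffix reads, and 9 of the 12 are described. Ncdn, which encodes the neuronal protein neurochondrin (chromosome 4, 126743750 to 126753438), had 1 prefix and 1211 suffix reads in replicate 1, and 1 prefix and 1302 suffix reads in replicate 2. A chain of 5 exons that lacked 2 junctions held 903 of these in replicate 1 and 995 in replicate 2, and kept the stop codon and not the start codon. Syp, the synaptic vesicle protein synaptophysin (chromosome X, 7638471 to 7653256), had 0 prefix and 302 suffix reads in replicate 1, and 0 prefix and 287 suffix reads in replicate 2. Its leading chain held the last 2 exons alone, with 180 reads in replicate 1 and 177 in replicate 2. Gpm6a, a neuronal membrane glycoprotein, had 533 suffix reads in replicate 1 and 643 in replicate 2, and its leading form lacked the first junction alone. Nell2, a secreted neuronal protein, had 639 suffix reads in replicate 1 and 628 in replicate 2. Its leading chain of 20 exons, with 555 reads in replicate 1 and 563 in replicate 2, began on an annotated start and held both codons.

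Ndufa4, a small mitochondrial protein of respiratory complex IV, had 1284 suffix reads in replicate 1 and 551 in replicate 2, and 1 chain of 2 exons held 1278 of these in replicate 1 and 547 in replicate 2. Atp5f1, a subunit of ATP synthase, had 616 suffix reads of 634 in replicate 1 and 329 of 342 in replicate 2. Its leading chain of 7 exons lacked 1 junction of its parent and began on another annotated start, with both codons held. Atp5b, the beta subunit, had 865 suffix reads in replicate 1 and 476 in replicate 2, of which a chain of 2 exons held 783 in replicate 1 and 432 in replicate 2. Ppp2r1a, the scaffold subunit of phosphatase PP2A, had 491 suffix reads in replicate 1 and 494 in replicate 2. Pld3, a lysosomal phospholipase D family member, had 586 suffix reads of 717 in replicate 1 and 478 of 608 in replicate 2. Its leading chain lacked 2 junctions and held both codons.

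AC149090.1, Calm3, Nisch and Caprin1 had the most Both reads in the library where they had fewer. AC149090.1 had 63 Both reads in replicate 1 and 106 in replicate 2. Calm3, a calmodulin gene, had 59 in replicate 1 and 46 in replicate 2, beside 33 suffix reads in replicate 1, 28 in replicate 2 and no prefix read. Nisch, which encodes the imidazoline-binding protein nischarin, had 34 in replicate 1 and 30 in replicate 2.

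The 29 genes with no common leader included 4 members of the functional lists. Kif5c, a kinesin heavy chain, had 58 prefix and 35 suffix reads in replicate 1, and 54 prefix and 58 suffix reads in replicate 2. Gria2, an AMPA receptor subunit, had 25 prefix and 21 suffix reads in replicate 1, and 29 of each in replicate 2. Atp2b1, a plasma membrane calcium pump, had 28 of each in replicate 1, and 19 prefix and 33 suffix reads in replicate 2. Ddx5, an RNA helicase, had 21 prefix and 23 suffix reads in replicate 1, and 36 prefix and 33 suffix reads in replicate 2. No member of the 4 passed the test of the split between libraries (Fisher's exact test with Benjamini-Hochberg adjustment, adjusted p = 1 for each).

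The spans of prefix-led and suffix-led genes overlapped widely. The median span was 31.7 kb over the 53 prefix-led genes, 27.9 kb over the 1140 suffix-led genes and 23.4 kb over the 8909 genes that reached 10 reads in both libraries. The interquartile range was 12.1 to 70.4 kb for prefix-led genes and 13.1 to 66.7 kb for suffix-led genes. The longest annotated transcript had a median of 3901 nt in prefix-led genes, 3840 nt in suffix-led genes and 3286 nt in those 8909 genes. The median of the largest annotated exon number was 12 in prefix-led and 14 in suffix-led genes, against 9 in those 8909 genes. Led genes also had to reach 10 prefix plus suffix reads in each library. Over all 1222 genes that did, the medians were 28.5 kb, 3854.5 nt and 14 exons. The 1140 suffix-led and 53 prefix-led genes are nearly all of these 1222, so closeness to their medians was given in advance. Whether the gap to the 8909 genes goes with the read minimum or with a leading form was therefore not separated.

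Prefix and suffix forms took a higher share of reads in the longest genes than in the shortest, and in those with the most exons than in those with 3 or 4. In genes whose longest annotated transcript was at most 1000 nt, prefix forms took 0.198% and suffix forms 2.91% of reads in replicate 1, and 0.209% and 3.00% in replicate 2. In genes above 6000 nt, prefix forms took 2.53% and suffix forms 13.4% in replicate 1, and 1.95% and 15.4% in replicate 2. None forms stood at 1.78% in replicate 1 and 2.17% in replicate 2 for the shortest genes and 4.21% in replicate 1 and 3.32% in replicate 2 for the longest. By exon number, prefix forms took 0.271% and suffix forms 1.69% of reads in genes with 3 or 4 exons in replicate 1, and 0.290% and 1.75% in replicate 2. With more than 16 exons they took 1.74% and 16.2% in replicate 1, and 1.48% and 16.9% in replicate 2. None forms took 3.89% in replicate 1 and 3.03% in replicate 2 with 3 or 4 exons, and 3.46% in replicate 1 and 2.17% in replicate 2 with more than 16. Length and exon number go together and their parts were not separated.

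**Figure D5:**
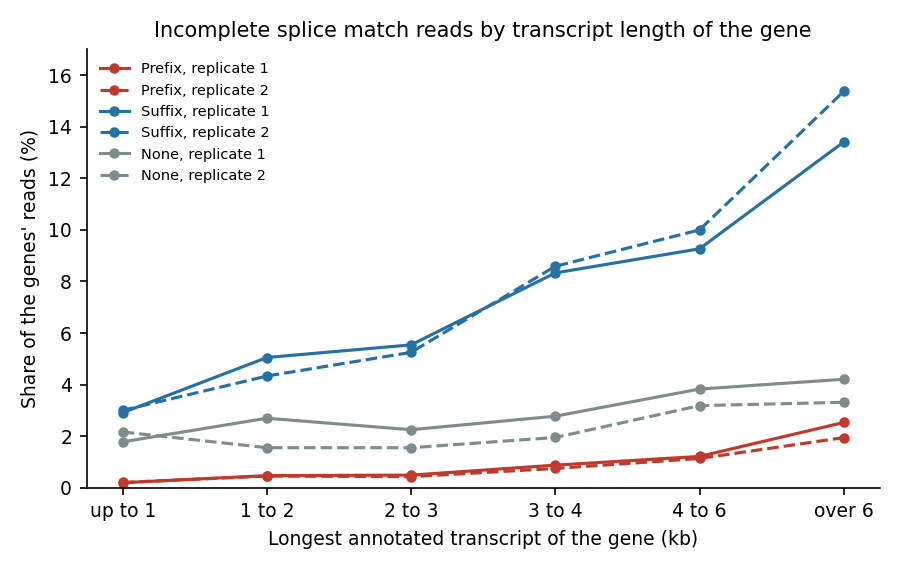
Share of the genes' reads (%, y axis) that were prefix, suffix or None forms, by the length of the gene's longest annotated transcript (kb, x axis), solid for replicate 1 and dashed for replicate 2, over the 8909 genes that reached 10 reads in both. Suffix lies above prefix and None in every length class, at 2.91 to 15.4% against 0.198 to 2.53% for prefix.

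Grouped by function, suffix forms led in most genes with enough reads of each list, as they did in 93.3% of all genes counted. The counts per list were not tested against that share. The 12 lists held 0 or 1 prefix-led gene each, and 3 lists held 1, against 4.34% prefix-led among all genes counted. Of the synaptic vesicle genes, all 11 with enough reads were suffix-led. Incomplete splice matches took 17.1% of their reads in replicate 1 and 18.03% in replicate 2. Slc17a7, the vesicular glutamate transporter, had 3 prefix, 103 suffix and 104 None reads in replicate 1, and 1 prefix, 91 suffix and 67 None reads in replicate 2. Syn1, which tethers synaptic vesicles, had 23 prefix and 165 suffix reads in replicate 1, and 10 prefix and 132 suffix reads in replicate 2. Postsynaptic density genes had 12.9% in replicate 1 and 17.5% in replicate 2. Of 10 with enough reads 9 were suffix-led, among them Camk2b with 178 suffix reads in replicate 1 and 244 in replicate 2, and Dlgap3 with 68 in replicate 1 and 64 in replicate 2.

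Motor protein genes had the highest share of the 12 lists in both libraries when reads were pooled, at 26.1% of reads in replicate 1 and 22.1% in replicate 2, and 7 of 8 were suffix-led. Dctn1, a dynactin subunit, had 62 suffix and 132 None reads in replicate 1, and 56 suffix and 59 None reads in replicate 2. Klc1, a kinesin light chain, had 85 suffix reads of 950 in replicate 1 and 56 of 846 in replicate 2. Microtubule and axon structure genes had 15.6% in replicate 1 and 14.99% in replicate 2, with 9 of 10 suffix-led and 1 prefix-led. The spectrins Sptan1 and Sptbn1 had incomplete splice matches in 81.9% and 75.4% of reads in replicate 1, and 78.3% and 69.9% in replicate 2. Stmn2, a tubulin-binding growth-associated protein, had 27 suffix and 182 None reads in replicate 1, and 20 suffix and 86 None reads in replicate 2.

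Pooled shares weight a list by its most-read genes. Astrocyte genes had 5.04% in replicate 1 and 4.76% in replicate 2, and all 8 with enough reads were suffix-led, including Cpe with 236 suffix reads in replicate 1 and 248 in replicate 2. Glycolysis genes had 5.92% in replicate 1 and 5.35% in replicate 2, all 12 with enough reads suffix-led. Aldoa, the glycolytic aldolase, had 137 suffix reads of 3165 in replicate 1 and 89 of 2054 in replicate 2. Pkm, pyruvate kinase, had 122 of 1426 in replicate 1 and 83 of 1322 in replicate 2. Chaperone genes had 9.41% in replicate 1 and 7.65% in replicate 2, with Hsp90aa1 at 27 prefix and 132 suffix reads in replicate 1, and 18 prefix and 95 suffix reads in replicate 2. Ribosomal protein and elongation factor genes had 9.57% in replicate 1 and 11.3% in replicate 2, all 8 with enough reads suffix-led, Eef1a1 having 126 suffix reads in replicate 1 and 111 in replicate 2. Ion pump and channel genes had 16.8% in replicate 1 and 17.9% in replicate 2, with 7 of 8 suffix-led. Splicing and RNA-binding genes had 20.7% in replicate 1 and 13.1% in replicate 2, and 6 of 8 were suffix-led and 1 prefix-led. Without Hnrnpa2b1 the list had 8.60% in replicate 1 and 10.6% in replicate 2. Proteasome and ubiquitin genes had 12.5% in replicate 1 and 6.33% in replicate 2, with 5 of 6 suffix-led and 1 prefix-led. Without Uchl1 it had 5.70% in replicate 1 and 6.36% in replicate 2. In 6 of the 12 lists leaving out 1 gene turned the direction of the difference between libraries, so no direction is read from these shares. Leaving out 1 gene moved a share over 1.5 times in 6 lists. Without Ubb the proteasome and ubiquitin list had 32.8% in replicate 1 and 14.8% in replicate 2. Without Nrgn the postsynaptic density list had 21.8% in replicate 1 and 26.6% in replicate 2. Each passed motor proteins in 1 library, so the order of the pooled shares can rest on single genes. Over all 6607 genes that reached 20 reads in both libraries the pooled share was 10.4% in replicate 1 and 10.1% in replicate 2. The median over genes was 26.5% in replicate 1 and 24.2% in replicate 2 for motor proteins, 24.7% in replicate 1 and 25% in replicate 2 for ion pumps and channels, 5.91% in replicate 1 and 6.67% in replicate 2 for astrocyte, 4.33% in replicate 1 and 4.67% in replicate 2 for glycolysis, and 6.33% in replicate 1 and 6.06% in replicate 2 over all of those genes.

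Few genes passed a test of the prefix against suffix split between libraries. With Fisher's exact test per gene, two-sided, and Benjamini-Hochberg adjustment over 1222 genes, 1 gene passed (0.0818%), while 29 had an unadjusted p below 0.05. Reads were the unit of these tests, so each p-value sets 1 pool against the other and says nothing of conditions. The gene was Epn2, an endocytic adaptor of the epsin family, with 0 prefix and 23 suffix reads in replicate 1, and 31 prefix and 22 suffix reads in replicate 2 (Fisher's exact test with Benjamini-Hochberg adjustment, adjusted p = 0.00038). Its leading prefix chain of 10 exons, with 18 reads in replicate 2, was also found in replicate 1 with 16 reads, where it was classed as a new combination of annotated sites.

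The share of a gene's reads that were incomplete splice matches differed between libraries in 303 of 6607 genes (4.59%) by the same test, 176 higher in replicate 1 (2.66%) and 127 higher in replicate 2 (1.92%), while 711 had an unadjusted p below 0.05. In 176 genes the class held the majority of reads in both libraries, and 648 genes had no read of it in either. Most calls came with 1-exon reads. In 259 of the 303 genes (85.5%) the 1-exon models made up over 50% of the difference, and in 265 the 1-exon reads classed as genomic moved the other way.

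The 5 genes with the largest differences were Lor, Kctd4, Slc12a5, Spock2 and Uchl1. Lor, the loricrin gene, had 48 incomplete splice match reads of 48 in replicate 1 and 0 of 52 in replicate 2, where 51 of its reads were 1-exon genomic. Kctd4, a BTB-domain gene, had 43 of 44 in replicate 1 and 0 of 33 in replicate 2, where 32 reads were 1-exon genomic. Slc12a5, the neuronal potassium chloride cotransporter KCC2, had 0 of 86 in replicate 1, where 84 were 1-exon genomic, and 61 of 64 in replicate 2. Spock2, a secreted proteoglycan, had 4 of 156 in replicate 1, where 122 were 1-exon genomic, and 155 of 163 in replicate 2. Uchl1, the abundant neuronal ubiquitin hydrolase, had 633 of 677 in replicate 1 and 17 of 297 in replicate 2, and its None reads were 34 in replicate 1 and 13 in replicate 2. Its leading chain of 8 exons was a suffix form with 582 reads in replicate 1 and the same chain was a form with an unannotated site with 241 reads in replicate 2.

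Myelin genes, of which all 3 with enough reads were suffix-led, had 1.84% of reads in the class in replicate 1 and 9.72% in replicate 2. They gave 3 calls of 8 tested, all higher in replicate 2. Over all 6607 genes tested, 4.59% were called and 1.92% were called higher in replicate 2. The count in the list was not tested against these shares. Leaving out Mbp, the list had 2.84% in replicate 1 and 7.10% in replicate 2. Mbp, myelin basic protein, had 34 of 3840 reads in the class in replicate 1 and 477 of 3893 in replicate 2, and its 1-exon genomic reads numbered 736 in replicate 1 and 5 in replicate 2. Hnrnpa2b1, a splicing regulator, had 627 of 872 in replicate 1 and 152 of 511 in replicate 2, with no 1-exon genomic reads in replicate 1 and 134 in replicate 2. Uqcrq also passed, at 52.1% in replicate 1 and 61.4% in replicate 2.

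With 1-exon models left out of both the class and the gene total, 24 of 5776 genes passed (0.416%), and 230 had an unadjusted p below 0.05. Of the 257 called genes that kept at least 20 spliced reads in each library, 235 no longer passed. When only spliced pieces of annotated transcripts were counted, a rule set after the data were seen, 11 of 5776 passed (0.19%). Uchl1 then had 17 such reads in replicate 1 and 4 in replicate 2, with an adjusted p of 1 in Fisher's exact test. Hnrnpa2b1 still passed, with 316 of 575 in replicate 1 and 148 of 377 in replicate 2. Sec62, a translocation protein of the endoplasmic reticulum, had 74 of 270 in replicate 1 and 29 of 244 in replicate 2, and Cfl1, the actin-severing protein cofilin, had 26 of 1447 in replicate 1 and 0 of 833 in replicate 2, and both passed. These 2 genes were named after their values were seen.

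Across the libraries, 499 spliced chains were incomplete splice matches in 1 library and another class in the other, 261 in replicate 1 alone and 238 in replicate 2 alone. Suds3, a subunit of a histone deacetylase complex, had a chain of 11 exons that was prefix with 88 reads in replicate 1 and an unannotated-site form with 89 reads in replicate 2. Ppp2r5c, a regulatory subunit of PP2A, had a chain of 14 exons that was prefix with 71 reads in replicate 1 and a new combination with 70 in replicate 2. Camta2, a transcription activator, had a chain of 14 exons that was an unannotated-site form with 62 reads in replicate 1 and a Both form with 107 in replicate 2. In each of the 3 both libraries held the chain, under another class name. These 3 genes too were named after their values were seen.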

How the data were processed

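The deposited values are counts of long reads per transcript model, 1 table per library, as the authors made them: per the file headers they rest on the mm10 assembly and the GENCODE M21 annotation, and the added models carry TALON as their source. The aligner, read filters and versions were not given in the material at hand. No normalization was applied to the counts, and the totals were 1168366 reads in replicate 1 and 888704 in replicate 2, so that 1 read was 0.856 CPM in replicate 1 and 1.13 CPM in replicate 2. Models of the incomplete splice match class in annotated genes were kept with their deposited subtype. Exon chains were matched to GENCODE M21 transcripts of the same gene, and between libraries by their junctions. Shares carry exact (Clopper-Pearson) 95% intervals. The split test took genes with 10 or more prefix plus suffix reads per library, and the share test needed 20 or more reads of the gene per library. Both used the two-sided Fisher's exact test with Benjamini-Hochberg adjustment at 0.05. The Fisher tests and the intervals were tested on simulated counts, and the placing of a piece within a chain on a made-up example. The simulated counts held no change of class name between libraries. The other steps were not simulated. Named genes were the 12 with the most prefix reads and the 12 with the most suffix reads among the led genes, 4 each for Both and None, the 5 largest called differences, and 3 per list; some of these are not reported here. The members and lists were chosen with earlier results of these data known. Each library is a pool of 3 animals, so the spread between 2 libraries may be technical as well as biological. A description line repeats the same animal numbers for both libraries, while the other labels name 6 animals. Tests ran in scipy 1.17.1 and tables in pandas 2.3.3, with numpy 2.4.6 under Python 3.11.15; plots came from matplotlib 3.10.9.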

Additional observations from a re-analysis of the deposited data

Results flagged for a closer look

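Incomplete splice matches were also present outside annotated genes, in data that no comparison here used. Antisense and intergenic genes added by the authors held 375 such reads in replicate 1, in 128 models, and 179 in replicate 2, in 74 models. Of these models 78 in replicate 1 and 45 in replicate 2 had 1 exon. In antisense genes, suffix forms had 91 reads in replicate 1 and 57 in replicate 2, and None forms had 226 in replicate 1 and 97 in replicate 2.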

How the results depend on the processing

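Of 75 alternatives over 17 results, 47 stayed within the tolerance and 28 moved past it. Reversals were not scored. The tolerance was 1.5 times for counts of genes or chains and 1 SD between libraries for other values, so a count inside it can still differ widely, and a span with a small SD can move by little. A share or exon mean from 1 library always lies within 1 SD of the mean of both, so these alternatives could not move. Prefix and suffix forms held no 1-exon models. Leaving those out therefore could not change their exon means, the led genes or the split test. The cause of a move was not tested unless the setting itself removes reads, models or genes. Leaving out models with 1 read gave an incomplete splice match share of 7.52%, a prefix share of 5.82% and a None share of 28.2%. Counting models once each gave prefix 12.4%, suffix 77.0% and None 9.13%, and over models prefix forms averaged 7.57 and suffix forms 8.61 exons. Over reads of annotated genes without spike-ins the class share was 10.6%. Leaving out 1-exon models gave a class share of 7.28%, prefix 9.98%, suffix 87.9%, Both 1.66% and None 0.456%, and 24 genes whose class share differed between libraries, against 303. Alternatives added after seeing the data gave a prefix share of 6.47% with subtypes set from annotated transcripts alone, and 11 differing genes with spliced annotated pieces alone. With at least 20 prefix plus suffix reads, 31 genes were prefix-led, with a median span of 28.9 kb, and 494 suffix-led; with at least 5, 114 were prefix-led and 2193 suffix-led. The median longest annotated transcript was 3.90 kb in prefix-led and 3.84 kb in suffix-led genes. A minimum of 2 reads per library left 4855 shared chains. Using 1 library alone, 77 to 123 genes were prefix-led, 1385 to 1573 suffix-led, and median spans were 29.8 to 31.8 kb for prefix-led and 25.5 to 28.9 kb for suffix-led genes. With 1 library alone the class share was 9.41 to 9.55%, prefix 7.51 to 7.77%, suffix 64.5 to 70.5%, Both 1.13 to 1.42% and None 20.6 to 26.6%, and the mean was 7.54 to 8.12 exons for prefix and 7.45 to 8.31 for suffix. Of the 53 prefix-led genes, 40 remained prefix-led with subtypes from annotated transcripts alone and 41 when only ends before the last exon of the parent were counted. No paired analysis was possible because the series has 1 group. Depth limits single models: 63.6% of models in replicate 1 and 64.9% in replicate 2 had 1 read, and intervals cover counting error only.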
